A study of Rattus norvegicus with 40 samples.

Results

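Hepatocyte identity transcription factors are the DNA-binding proteins that switch on, and keep switched on, the genes by which a liver cell is known. The 9 genes followed here were chosen with earlier results of these data known. They were taken by gene symbol: Cebpa, Cebpb and Cebpd, Hnf4a, Foxa1, Foxa2 and Foxa3, Gata4, and Nfib. They were represented by 15 of the 15866 probe sets of the Affymetrix RAE230A array that are not controls, and by 9 of the 10411 genes tested. Liver RNA came from male rats 10-12 weeks old, with 1 array per rat and 4 rats per group, 40 arrays in all. Groups at 19 h after gavage were H/W, LnA, L-E and LnC rats given 1 dose of 100 ug/kg TCDD (2,3,7,8-tetrachlorodibenzo-p-dioxin), each set against rats of the same strain/line given corn oil, the vehicle. Another 2 groups, H/W and L-E rats given the same dose of TCDD, were taken at 3 h, and no corn oil rats of that time were analysed here. H/W (Han/Wistar) and LnA rats are resistant to the major toxicities of TCDD. They carry an aryl hydrocarbon receptor (AHR) protein that lacks part of its transactivation domain. L-E (Long-Evans) and LnC rats are sensitive and carry the wild-type receptor. LnA and LnC are lines bred from H/W and L-E rats, so each differs from its partner in more than the receptor. The whole of a treatment group was kept in 1 cage, so cage and treatment cannot be told apart.

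In the liver, C/EBP alpha (Cebpa) holds hepatocytes in a differentiated, non-dividing state and drives genes of glucose and nitrogen metabolism, while C/EBP beta (Cebpb) and C/EBP delta (Cebpd) are best known for the acute phase response, and Cebpb also for regeneration. HNF4 alpha (Hnf4a) is a nuclear receptor on which a large part of the hepatocyte programme depends. The FOXA proteins and GATA4 bind sites in closed chromatin and open them for other factors, and nuclear factor I proteins such as NFIB bind beside them. The AHR, once bound by TCDD, pairs with ARNT and binds DNA at sites with the core GCGTG.

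Values are log2 signals per probe set, so a difference of 1 is a 2-fold difference, and signals of different probe sets are not set against each other. A gene with more than 1 probe set was read from its brightest, by mean signal at 19 h. Differences were tested with limma, which fits a linear model to each gene and moderates its spread by that of all genes, with Benjamini-Hochberg adjusted p over the 10411 genes. An adjusted p under 0.01 is what is meant below by a called gene. Signals of Cebpa, Cebpb, Hnf4a, Foxa2, Foxa3 and Nfib were above the array median in 40 of 40 arrays, Foxa1 in 36 and Gata4 in 8. The 3 probe sets of Cebpd were below the median in all 40 arrays (medians from 3.52 to 3.76), so what the array says of Cebpd and Gata4 is limited. The tissue was as labelled: Alb read 16.38 or more in every array, and the mean of 9 hepatocyte markers lay between 14.82 and 15.09. Of 6 bile duct markers measured, Krt7, Spp1, Cldn4 and Muc1 were below the array median in all 40 arrays. Krt19 was above it in 1 array and Epcam, at 4.53 to 5.80, in all 40. Bulk liver RNA cannot tell fewer cells of a type from less RNA per cell. Cyp1a1, the classical AHR target, marked the treatment, at 14.27 to 14.69 in the 16 TCDD livers at 19 h, against 2.13 to 8.60 in the 16 corn oil livers. Scanning took 5 days. Both strains at 19 h fell on days 1 to 3, each with as many TCDD as corn oil arrays per day, the 2 lines on day 4, and everything from 3 h on day 5.

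The start regions of Cebpa, Cebpb and Nfib are shown because these 3 genes carry the main differences described below. After TCDD at 19 h, Nfib was called lower in L-E and LnC, and Cebpa was called lower in L-E. Cebpb was higher in all 4 strains/lines without being called. Each run is the 250 bases before the gene's start in RefSeq (build GRCr8), written 5′ to 3′ along the gene's strand, with each match to the AHR core GCGTG, on either strand, in capitals. Cebpa lies on the plus strand (chr1:96896334-96896583), Cebpb on the plus strand (chr3:176816755-176817004) and Nfib on the minus strand (chr5:102019946-102020195, a start inside the annotated span of the gene).
Cebpa: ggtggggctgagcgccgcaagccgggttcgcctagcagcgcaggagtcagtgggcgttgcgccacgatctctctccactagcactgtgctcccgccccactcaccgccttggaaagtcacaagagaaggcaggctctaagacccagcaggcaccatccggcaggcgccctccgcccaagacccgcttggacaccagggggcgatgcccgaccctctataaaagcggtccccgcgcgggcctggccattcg
Cebpb: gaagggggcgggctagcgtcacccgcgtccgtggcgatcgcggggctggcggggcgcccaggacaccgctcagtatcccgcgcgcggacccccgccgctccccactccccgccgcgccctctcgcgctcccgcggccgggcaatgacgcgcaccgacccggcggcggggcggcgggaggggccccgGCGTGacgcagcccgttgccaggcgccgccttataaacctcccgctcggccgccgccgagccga
Nfib: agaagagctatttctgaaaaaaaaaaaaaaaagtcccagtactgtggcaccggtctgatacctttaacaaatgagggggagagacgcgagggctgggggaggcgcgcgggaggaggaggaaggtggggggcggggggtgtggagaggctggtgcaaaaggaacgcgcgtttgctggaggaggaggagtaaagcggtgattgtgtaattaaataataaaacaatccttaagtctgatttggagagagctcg
Promoters of 6 of the 9 members were matched, Hnf4a with 2 starts. The core GCGTG was in the window of Cebpb, 64 to 60 bases before the start, and in those of no other member matched, and 25.9% of 33469 promoters of that length hold it. CCAAT was found before both starts of Hnf4a and in Foxa3 (34% of promoters), the GATA motif AGATAA before 1 start of Hnf4a (10.3%), and the nuclear factor I element TTGGC before its other start (40.3%). TTGCGCAA, the palindrome of the C/EBP proteins (0.14%), the forkhead motif TGTTTAC (3.21%) and the HNF4 element CAAAGT (12.9%) were in none of these windows. Both strands were searched for each motif, and no 2 matches overlapped. A match is a string of letters and was not tested for binding.

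The first question was which of these factors TCDD altered at 19 h, and whether the sensitive rats differed from the resistant ones. Nfib and Cebpa fell in L-E livers and Nfib fell in LnC livers, to between 33.6% and 54.7% of the corn oil level, while no member was called in H/W or LnA livers. In H/W even Cyp1a1 was not called, at a difference of 10.47 (SE 1.34, limma adjusted p = 0.0142). Its corn oil signals there spread from 2.38 to 8.60, so no call in H/W does not mean no response. Over all genes, 0.423% were called in H/W, 1.09% in LnA, 2.06% in L-E and 1.13% in LnC. Of the 9 members, 0 were called in H/W, 0 in LnA, 2 in L-E and 1 in LnC, all of them lower. The median log2 difference of the 9 members was -0.04 in H/W, -0.32 in LnA, -0.36 in L-E and -0.07 in LnC, where that of all genes lay between -0.04 and 0.01.

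**Figure D1:**
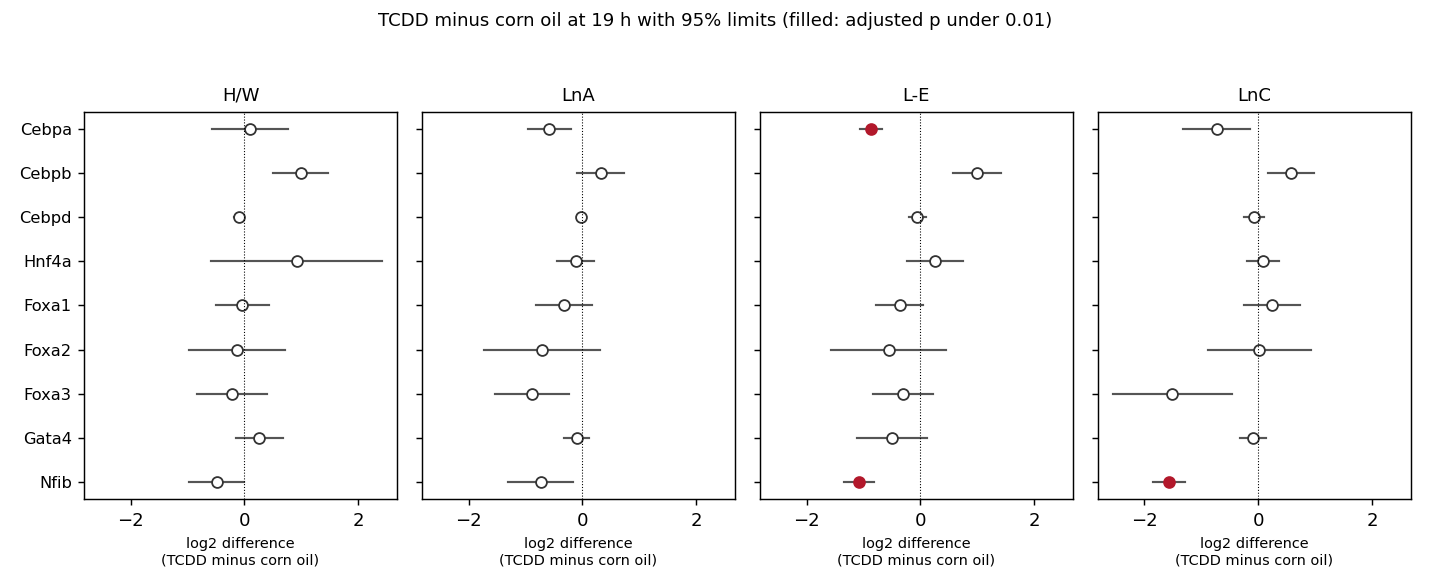
Log2 difference of each member, TCDD minus corn oil at 19 h, in H/W, LnA, L-E and LnC livers (points: limma estimate, lines: 95% limits, filled: adjusted p under 0.01). Filled points stand at -0.87 (Cebpa, L-E), -1.08 (Nfib, L-E) and -1.57 (Nfib, LnC), and Cebpb lies to the right of 0 in all 4 panels.

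Nfib, a nuclear factor I gene, was the member with the largest fall. In LnC its log2 signals were 6.79, 6.84, 6.56 and 6.98 in TCDD livers, against 8.44, 8.52, 8.43 and 8.08 in corn oil livers. The groups stood more than 1 log2 unit apart at their nearest rats, and the difference was -1.57 (SE 0.12, a 2.98-fold fall, limma adjusted p = 0.000992), a call that held without any 1 of the 8 arrays (up to 0.00749). In L-E the signals were 8.06, 8.44, 8.38 and 8.25 in TCDD livers, against 9.24, 9.21, 9.40 and 9.59 in corn oil livers. Again no rat of either group reached the other, and the difference was -1.08 (SE 0.11, a 2.11-fold fall, limma adjusted p = 0.00317). Within the 2 scan days that held both L-E groups it was -1.18 (1 rat each) and -1.04 (3 rats each). Without L-E corn oil replicate 3 or L-E TCDD replicate 4 this adjusted p became 0.0138 or 0.0142, and with the mean of the gene's 3 probe sets in place of the brightest it became 0.0645. In LnC the same mean gave -0.98 with an adjusted p of 0.0197. One of the probe sets averaged stayed between 2.01 and 2.15 in all 40 arrays, below every array median.

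The resistant rats had smaller differences of the same sign in Nfib. LnA TCDD livers had signals of 6.92, 6.93, 7.76 and 7.45, against 7.47, 8.21, 8.18 and 8.13 in LnA corn oil livers, where replicate 1 lay far below the other 3. The groups overlapped (difference -0.73, SE 0.24, limma adjusted p = 0.201), and without corn oil replicate 1 the difference was -0.91. H/W TCDD livers had 9.15, 8.70, 8.67 and 8.79, against 9.57, 9.31, 9.64 and 8.75 in H/W corn oil livers. These overlapped too, with a difference of -0.49 (SE 0.21, adjusted p = 0.404). A second probe set of Nfib, above the array median in all 40 arrays, also stood lower after TCDD in the 4 strains/lines. Its differences were -0.57 in H/W, -1.14 in LnA, -1.26 in L-E and -1.35 in LnC, none of which was called (limma adjusted p over all probe sets 0.487, 0.0879, 0.270 and 0.128). In LnA its groups did not overlap, at 4.999, 5.02, 5.54 and 5.35 in TCDD livers, against 5.73, 6.13, 6.69 and 6.92 in corn oil livers.

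Cebpa fell in L-E livers. Its signals there were 8.27, 8.54, 8.43 and 8.51 in TCDD livers, against 9.49, 9.21, 9.22 and 9.32 in corn oil livers. Each group was tight and they did not overlap (difference -0.87, SE 0.08, a 1.83-fold fall, limma adjusted p = 0.00234), and within the 2 scan days it was -1.22 and -0.75. The call held with any 1 of the 8 arrays left out (adjusted p up to 0.00954), and was lost in 1 fit over all 10 groups, which shares 1 spread over all arrays (0.0514). In LnC, TCDD livers read 6.79, 7.68, 7.44 and 6.55, against 7.92, 7.88, 7.63 and 7.96 in corn oil livers. TCDD replicate 2 reached into the corn oil range, and the difference of -0.73 (SE 0.25) was not called (adjusted p = 0.205). In LnA the values were 7.34, 7.75, 7.52 and 6.995 in TCDD livers, against 7.97, 8.09, 8.10 and 7.78 in corn oil livers. The groups did not overlap, though only by a narrow gap, and the difference of -0.58 (SE 0.16) was not called (adjusted p = 0.117). H/W livers had 8.76, 9.17, 8.64 and 9.09 after TCDD, against 8.82, 9.54, 8.10 and 8.80 after corn oil. The 2 means lay 0.10 apart with the TCDD mean higher (95% limits -0.56 to 0.76). That sign turned on 1 liver: without H/W corn oil replicate 3, at 8.10, the difference was -0.14.

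Cebpb was the member with higher values after TCDD in all 4 strains/lines. L-E TCDD livers had 10.43, 10.75, 11.09 and 10.42, against 9.39, 9.61, 9.87 and 9.83 in L-E corn oil livers. H/W TCDD livers had 10.89, 10.95, 10.30 and 10.59, against 9.45, 9.84, 10.13 and 9.37 in H/W corn oil livers. In neither strain did the groups overlap, and the differences were close to 2-fold, at 0.99 in each (SE 0.18 in L-E and 0.21 in H/W). Within scan days the L-E difference was 1.04 and 0.98, and the H/W difference 1.44, 0.64 and 1.23. Neither was called at 0.01 (limma adjusted p = 0.0222 in L-E and 0.0776 in H/W). With the spread estimated over all 40 arrays they were 0.000405 in L-E and 0.00102 in H/W, both past the threshold, and with the lowest 40% of genes left out the L-E value was 0.00866. The differences in LnC (0.57, SE 0.17, adjusted p = 0.143) and LnA (0.32, SE 0.17, adjusted p = 0.521) were smaller and their groups overlapped. At an adjusted p under 0.05 Cebpb joined Cebpa and Nfib in L-E, for 3 of 9 members, where 6.49% of all genes passed. At that level 0 members passed in H/W (1.48% of genes), 0 in LnA (3.21%) and 1 in LnC (3.63%).

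**Figure D2:**
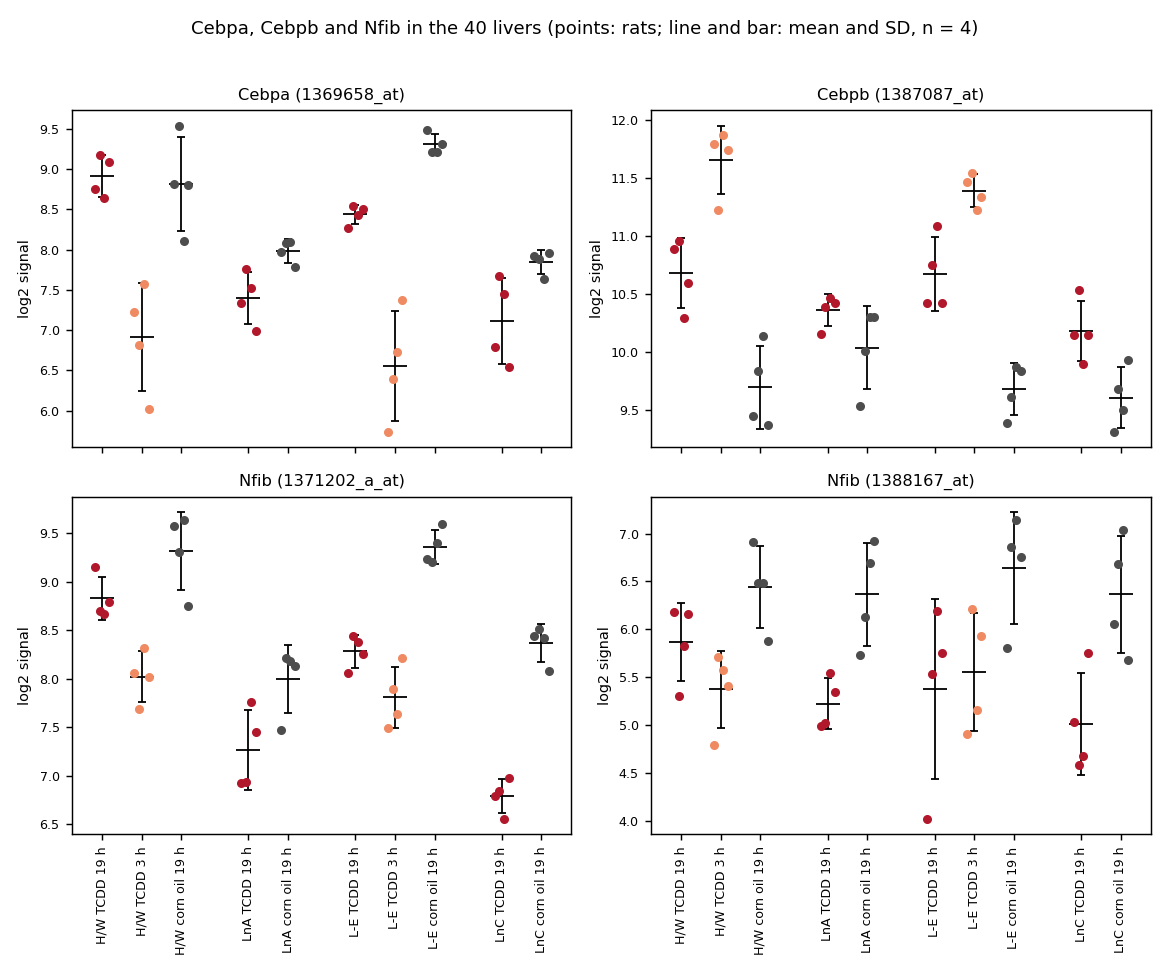
Log2 signal of Cebpa, Cebpb and the 2 Nfib probe sets above the array medians, in each of the 40 livers by strain/line and treatment (points: rats, lines and bars: mean and SD, n = 4). Cebpa at 3 h lies between 5.74 and 7.58, under all 16 corn oil livers, and Cebpb at 3 h lies between 11.22 and 11.87, above all 32 livers at 19 h.

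Hnf4a, the nuclear receptor of the group, was not called in any comparison. L-E TCDD livers had 10.38, 10.68, 10.38 and 10.89, against 9.81, 10.35, 10.40 and 10.73 in L-E corn oil livers, which overlapped. In LnA, LnC and L-E the differences lay between -0.12 and 0.26, and the 95% limits of LnC ran from -0.20 to 0.37. In H/W the estimate was 0.92 with limits from -0.59 to 2.42, and it turned on 1 liver. H/W TCDD livers read 10.28, 10.44, 10.62 and 10.22, against 9.69, 10.61, 7.37 and 10.20 in H/W corn oil livers. The second probe set of Hnf4a had the same low liver, replicate 3, at 6.95 where the other 3 had 8.24 to 9.06. Without it the difference in H/W was 0.22. That array also had the highest corn oil signal of Cyp1a1, 8.60, and of the 40 arrays it had the most genes over 1 log2 unit from the mean of the other 3 rats of its group (168 genes, 1.61%, against 165 for LnC TCDD replicate 1). Rxra, the nuclear receptor partner of many liver receptors, read 4.80 in that liver and 7.71 to 8.47 in the other 3.

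Of the forkhead genes, Foxa3 had the largest difference. In LnC, TCDD livers read 6.52, 7.17, 5.68 and 5.55, against 7.94, 8.54, 7.26 and 7.23 in corn oil livers. The groups did not overlap but both spread over more than 1 log2 unit (difference -1.51, SE 0.45, limma adjusted p = 0.142). In LnA, TCDD livers read 6.64, 6.86, 7.67 and 6.48, against 7.66, 7.42, 8.05 and 8.09 in corn oil livers, and here 1 TCDD liver stood within the corn oil range (difference -0.89, SE 0.28, adjusted p = 0.174). The difference was -0.31 in L-E (adjusted p = 0.569) and -0.22 in H/W (adjusted p = 0.641). Foxa2, needed in mouse liver for bile acid and glucose metabolism, had differences from -0.71 in LnA to 0.02 in LnC, each with groups that overlapped and an adjusted p of 0.592 or more. Foxa1, close to the array medians, lay between -0.36 and 0.25 (adjusted p of 0.341 or more).

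Gata4 and Cebpd had the lowest signals. The brighter Gata4 probe set read 4.004, 3.15, 3.96 and 3.14 in L-E TCDD livers, against 4.38, 3.99, 4.18 and 3.70 in L-E corn oil livers, which overlapped (difference -0.50, adjusted p = 0.375). In the other 3 strains/lines its differences lay between -0.10 and 0.26. The Cebpd probe sets moved by less than 0.1 log2 units in each strain/line. In H/W the brightest of them did not overlap between groups, at 2.19 to 2.25 in TCDD livers, against 2.26 to 2.35 in corn oil livers, all below the array median.

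**Figure D3:**
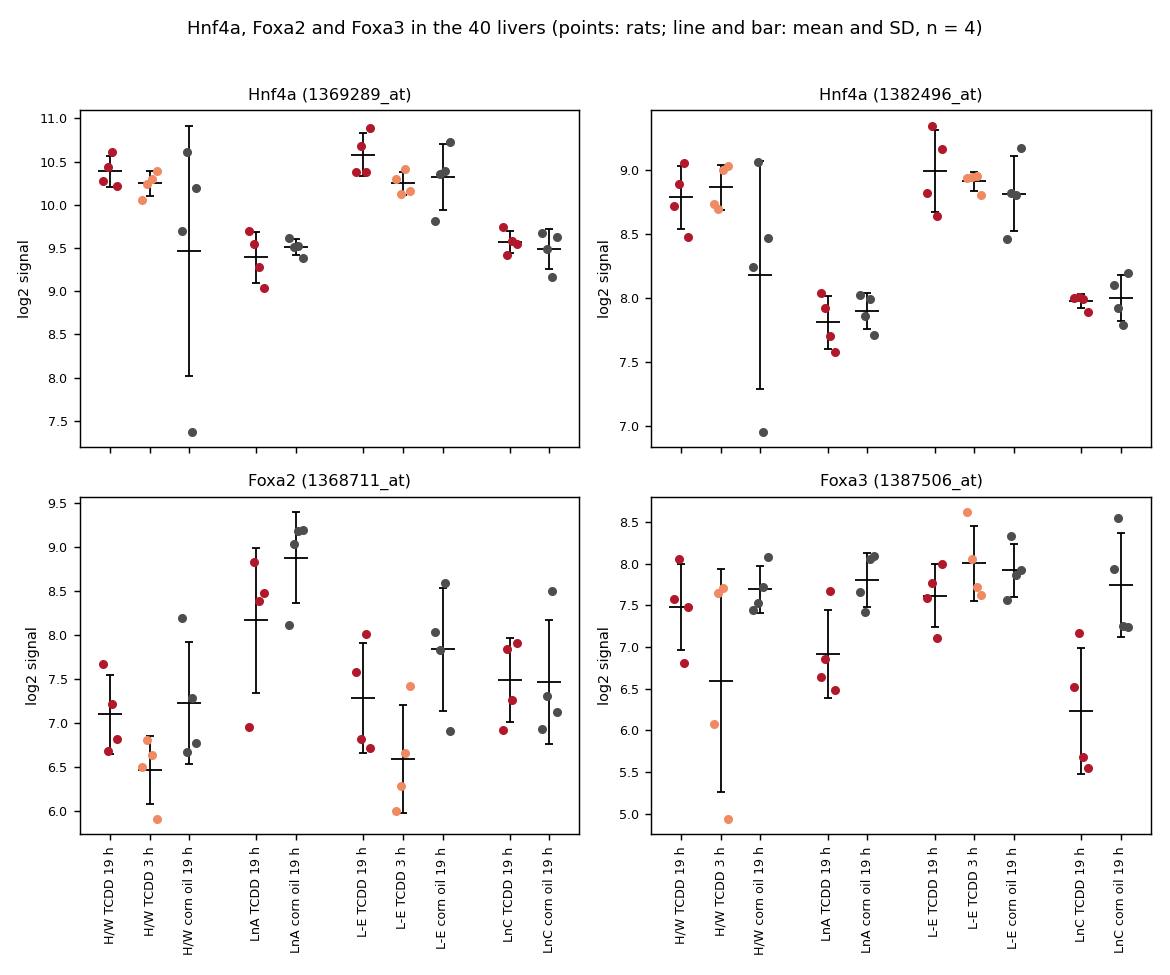
Log2 signal of the 2 Hnf4a probe sets, Foxa2 and Foxa3 in each of the 40 livers by strain/line and treatment (points: rats, lines and bars: mean and SD, n = 4). H/W corn oil replicate 3 stands low in both Hnf4a panels, at 7.37 and 6.95, and the LnC TCDD livers stand below the LnC corn oil livers in Foxa3.

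The design then asks whether the response itself differed between resistant and sensitive rats, which is a test of the difference of differences. No member was called in any of the 3 tests of this kind. Over all genes 0.0384% were called for H/W minus L-E, 0.0768% for LnA minus LnC and 0.0961% for the resistant minus the sensitive pair, so few genes of any kind passed. The response of Nfib in resistant rats was higher than that in sensitive rats by 0.71, a smaller fall (SE 0.19, 95% limits 0.32 to 1.11, limma adjusted p = 0.245). The same difference was 0.84 for LnA minus LnC (limits 0.23 to 1.46, adjusted p = 0.837) and 0.59 for H/W minus L-E (limits 0.06 to 1.12, adjusted p = 0.463). These values are from the brightest Nfib probe set. With the mean of the gene's 3 probe sets, 1 of them flat, they were 0.38, 0.35 and 0.41, in the same order. Without LnA corn oil replicate 1, the brightest probe set gave 0.67 for LnA minus LnC. For Cebpa the difference of responses was 0.97 for H/W minus L-E (limits 0.29 to 1.65, adjusted p = 0.355). Without H/W corn oil replicate 3 this was 0.73. For LnA minus LnC it was 0.15 (limits -0.52 to 0.82). For Cebpb, H/W minus L-E was -0.01 (limits -0.63 to 0.61). A call in sensitive rats and none in resistant rats therefore came without a called difference between their responses.

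Corn oil rats show the levels from which each strain/line starts. All called differences here were lower in the group named first, and 4 of the 5 set a line against a strain. Over all genes 0.999% were called for H/W minus L-E, 0.394% for LnA minus LnC, 1.9% for LnA minus H/W and 2.41% for LnC minus L-E. Of the members, 1 was called for H/W minus L-E (Gata4), 0 for LnA minus LnC, 1 for LnA minus H/W (Nfib) and 3 for LnC minus L-E (Cebpa, Gata4 and Nfib). Day 4 of scanning held the lines and no strain, so in these last 2 comparisons the line and its day cannot be told apart.

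Cebpa was at 7.92, 7.88, 7.63 and 7.96 in LnC corn oil livers, against 9.49, 9.21, 9.22 and 9.32 in L-E corn oil livers. The groups stood apart by over 1 log2 unit at their nearest (difference -1.46, SE 0.21, limma adjusted p = 0.00156). LnA livers, at 7.97, 8.09, 8.10 and 7.78, lay under H/W livers, at 8.82, 9.54, 8.10 and 8.80, with the nearest rats at 8.097 in LnA and 8.102 in H/W (difference -0.83, SE 0.21, adjusted p = 0.0367). Without H/W replicate 3, the liver with little Hnf4a, this became -1.07 with an adjusted p of 0.00313. Hnf4a was also lower in LnC than in L-E corn oil livers without being called, at 9.68, 9.49, 9.17 and 9.63 in LnC, against 9.81, 10.35, 10.40 and 10.73 in L-E. The groups did not overlap (difference -0.83, SE 0.51, 95% limits -1.92 to 0.25, adjusted p = 0.293), and its second probe set gave -0.81 (limits -1.51 to -0.12, adjusted p over all probe sets 0.162), again with no overlap.

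The brightest Nfib probe set read 7.47, 8.21, 8.18 and 8.13 in LnA corn oil livers, against 9.57, 9.31, 9.64 and 8.75 in H/W corn oil livers (difference -1.32, SE 0.20, limma adjusted p = 0.00214). In LnC minus L-E the difference was -0.99 (SE 0.20, adjusted p = 0.00948), a call that was lost without any 1 of the 8 arrays (0.0194 to 0.0277). The second probe set did not show this. There the difference was -0.07 in LnA minus H/W (95% limits -0.85 to 0.71) and -0.27 in LnC minus L-E (limits -1.06 to 0.51). With the mean of the 3 probe sets neither difference was called (adjusted p = 0.163 and 0.177). The strain difference of Nfib thus rests on 1 probe set, whereas its lower values after TCDD were seen in both.

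Gata4 stood out in L-E corn oil livers, at 4.38, 3.99, 4.18 and 3.70. The other corn oil groups were lower, at 3.45, 3.19, 3.19 and 2.92 in H/W, 3.05, 3.17, 3.13 and 3.02 in LnA, and 3.12, 3.19, 3.20 and 3.16 in LnC. H/W minus L-E was -0.88 (SE 0.12, limma adjusted p = 0.00166) and LnC minus L-E was -0.90 (SE 0.12, adjusted p = 0.00121). Within the 2 scan days that held both strains, H/W minus L-E was -0.93 (1 rat each) and -0.77 (2 against 3 rats). The values of the lower groups are under the array medians, so the sizes depend on the low end of the scale, and the second Gata4 probe set was flat at 3.10 to 3.18 over all 40 arrays. Foxa2 was at 8.11, 9.04, 9.18 and 9.19 in LnA corn oil livers, against 8.19, 6.68, 7.29 and 6.78 in H/W corn oil livers. Only H/W replicate 1 reached the LnA range, and the difference of 1.65 (SE 0.44) was not called at 0.01 (adjusted p = 0.0443). LnA minus LnC was 1.41 (SE 0.44, adjusted p = 0.197).

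**Figure D4:**
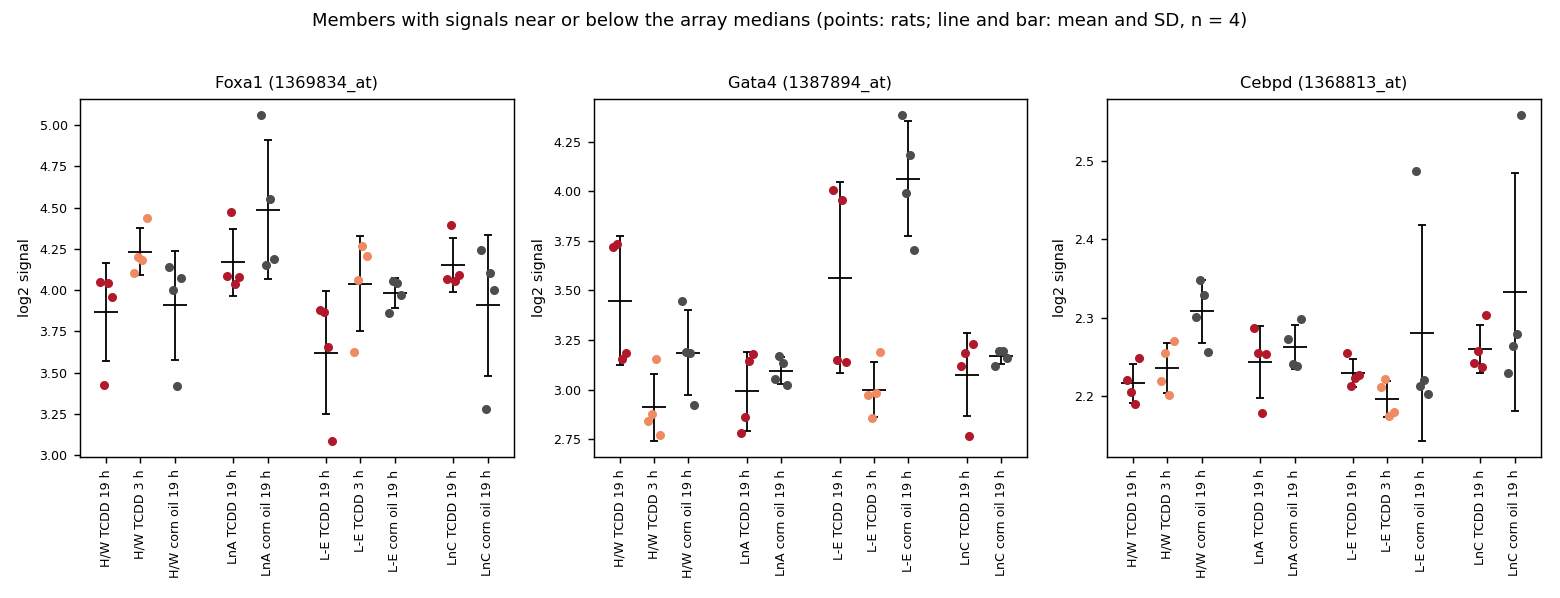
Log2 signal of Foxa1, Gata4 and Cebpd in each of the 40 livers by strain/line and treatment (points: rats, lines and bars: mean and SD, n = 4). In Gata4 the 4 L-E corn oil livers, at 3.70 to 4.38, stand above the corn oil livers of H/W, LnA and LnC.

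At 3 h after TCDD the strains H/W and L-E were compared with each other, and no member was called (0 of 9, where 2.18% of all genes were). Between the times, Cebpa had the largest difference in both strains. Over all genes 5.15% were called for 19 h minus 3 h in H/W and 4.01% in L-E. Among the members 1 was called in H/W (Cebpa, higher at 19 h) and 0 in L-E. All 3 h arrays were scanned on 1 day, which held no other array, so time and day of scanning cannot be told apart. With no corn oil rats at 3 h, a change with time after gavage alone cannot be told apart from a change with time after TCDD.

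In H/W rats given TCDD, Cebpa read 8.76, 9.17, 8.64 and 9.09 at 19 h, against 7.23, 6.82, 7.58 and 6.02 at 3 h. All 19 h livers were above all 3 h livers, by a mean of 2.01 (SE 0.33, a 4.02-fold difference, limma adjusted p = 0.00847). Leaving out 1 array gave an adjusted p of 0.00736 to 0.0278, and the call held without H/W TCDD 3 h replicate 3 or 4 and was lost without any 1 of the other 6 arrays. In L-E rats given TCDD, Cebpa read 8.27, 8.54, 8.43 and 8.51 at 19 h, against 5.74, 6.39, 6.73 and 7.37 at 3 h. Here too the times did not overlap, with a difference of 1.88 (SE 0.32, adjusted p = 0.0118), just outside the threshold, and 0.00584 without L-E TCDD 3 h replicate 4. The 8 livers at 3 h, from 5.74 to 7.58, were below all 16 corn oil livers at 19 h, of which the lowest read 7.63. That comparison has no corn oil rats at 3 h and was not tested.

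Cebpb went the other way. In H/W rats given TCDD it read 10.89, 10.95, 10.30 and 10.59 at 19 h, against 11.79, 11.22, 11.87 and 11.74 at 3 h (difference -0.97, SE 0.19, limma adjusted p = 0.0182). In L-E rats given TCDD it read 10.43, 10.75, 11.09 and 10.42 at 19 h, against 11.46, 11.54, 11.22 and 11.33 at 3 h (difference -0.72, SE 0.16, adjusted p = 0.0328). In both strains every 3 h liver was above every 19 h liver, and neither difference was called at 0.01 with all arrays. Leaving out 1 array, the first passed without H/W TCDD 3 h replicate 2 (0.00992) and the second without L-E TCDD 19 h replicate 3 (0.00899). In 1 fit over all 10 groups both passed (0.00046 in H/W and 0.00849 in L-E), and with the lowest 40% of genes left out the first did (0.00784). Nfib was at 9.15, 8.70, 8.67 and 8.79 at 19 h in H/W rats given TCDD, against 8.06, 7.69, 8.32 and 8.02 at 3 h (difference 0.81, SE 0.16, adjusted p = 0.0170). In L-E rats its difference was 0.48 (SE 0.16, adjusted p = 0.129). The second Nfib probe set had 0.49 in H/W and -0.18 in L-E. Hnf4a differed by 0.14 in H/W and 0.33 in L-E, and the change over time differed between the strains for none of the 9 members (0 called, against 0.0576% of all genes).

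The genes around these factors were read from fixed lists. Of 32 measured targets of C/EBP factors, HNF4A and FOXA, those called after TCDD were all lower: 0 in H/W, 3 in LnA, 4 in L-E and 1 in LnC. The shares of all genes called, higher or lower, were 0.423%, 1.09%, 2.06% and 1.13%. The median of the list was -0.12 in H/W, -0.12 in LnA, -0.03 in L-E and -0.05 in LnC, where the medians of all genes lay between -0.04 and 0.01. Otc, a urea cycle enzyme, fell by 0.96 in L-E and by 0.44 in LnA (limma adjusted p = 0.00184 and 0.00923). Ass1, another urea cycle enzyme, fell by 0.87 in L-E and by 0.61 in LnC (adjusted p = 0.00584 and 0.00704). Slc10a1, which takes bile acids into hepatocytes, fell by 0.94 in L-E and by 0.67 in LnA (adjusted p = 0.00458 and 0.00669). Slc2a2, the glucose transporter of hepatocytes, fell by 1.47 in L-E (adjusted p = 0.00317), and Pc, pyruvate carboxylase, fell by 0.91 in LnA (adjusted p = 0.00103). At 19 h minus 3 h, 6 of the 32 targets were called lower and 0 higher in each of H/W and L-E, Otc, Ass1 and Arg1 among them in both. Of all genes 5.15% were called in H/W and 4.01% in L-E, and time and scan day cannot be told apart here either.

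Of 31 other liver transcription factors measured, 1 was called after TCDD at 19 h in each of H/W, L-E and LnC. The shares of all genes called were 0.423% in H/W, 1.09% in LnA, 2.06% in L-E and 1.13% in LnC. Nr1h3, the oxysterol receptor LXR alpha, rose by 0.97 in H/W and by 0.63 in LnC (limma adjusted p = 0.00188 and 0.00220). Nr1h4, the bile acid receptor FXR, fell by 0.62 in L-E (adjusted p = 0.00316). In LnA 0 of the 31 were called. Of 13 relatives of the members, Nfic, a nuclear factor I gene like Nfib, fell by 0.88 in LnC (adjusted p = 0.00286), and 0 were called in the other strains/lines. Of 10 partners of the members 0 were called in any strain/line. Of 20 acute phase genes, to which Cebpb and Cebpd are classically tied, Apcs fell by 0.86 in H/W and by 1.12 in L-E (adjusted p = 0.00276 and 0.00195). Crp fell by 0.37 in L-E (adjusted p = 0.00316), and none was called higher. At an adjusted p under 0.05, 1 of the 20 was higher in LnC. The 7 genes of the AHR battery measured were higher in all 4 strains/lines, 5 of them called in H/W, Cyp1a1 not among these, and 7 in each of the others. For 19 h minus 3 h in H/W, 5 of the 31 factors were called, where 5.15% of all genes were. Atf5 and Nr1h3 were higher, and Nr5a2, Prox1 and Nr1i2 lower. Also called were 2 relatives (Nfic higher, Cebpz lower) and 1 partner (Zfpm1, higher). For the same times in L-E, 2 of the 31 were called (4.01% of all genes), Atf5 and Rxra, both higher.

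Markers of other cells moved little with TCDD. None of 9 hepatocyte, 6 bile duct cell or 4 blood cell markers was called in any strain/line. Of 9 macrophage and other immune cell markers only Cd14 was called, lower in LnC by 0.93 (limma adjusted p = 0.00706). Of 12 stellate and endothelial cell markers only Eng was called, lower in L-E by 0.62 (adjusted p = 0.00803). Of all genes 1.13% were called in LnC and 2.06% in L-E. The mean of the immune cell markers in corn oil livers was 6.39 to 6.47 in LnA and 6.97 to 7.21 in LnC, and 6.79 to 6.97 in H/W and 6.98 to 7.35 in L-E. Of these markers 2 were called lower in LnA than in LnC and 1 lower in LnA than in H/W, and 0 in the other 2 corn oil comparisons. In LnC minus L-E, where 3 members were called, the hepatocyte marker Apoh was higher by 0.27 and the stellate cell marker Lrat by 1.12 (limma adjusted p = 0.000887 and 0.00223). Their part in the results on the members was not tested.

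Over the 32 arrays at 19 h, the genes whose signals ran most like each member were found by Pearson's r, as a description over arrays that share strain/line and treatment. Cebpa ran most like Sec14l2 (r = 0.90), Ptms (0.88) and Akap8l (0.87), and Nfib like Ptms (0.91), Ankh (0.88) and Sult1e1 (0.88), so Ptms was near the head of both. Cebpb ran most like Tiparp (0.82), Cyp1a1 (0.81) and Chka (0.80), of which Tiparp and Cyp1a1 belong to the AHR battery. Hnf4a ran most like Rxra (0.90), Akt2 (0.86) and Lman1 (0.81), and without the 1 H/W corn oil liver with little Hnf4a these were 0.85, 0.81 and 0.72, ranks 8, 22 and 130. Foxa2 ran most like Hhex (0.83), a homeobox gene of early liver formation. The highest r was 0.67 for Foxa1, 0.77 for Foxa3, 0.89 for Gata4 and 0.83 for Cebpd.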

How the data were processed

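The authors deposited log2 signals per probe set of 40 arrays, 1 per rat, for which the submitters' processing notes name GCRMA (2.4.1), the affy package (1.10.0) and R (2.3.1) (the study's methods name RMA with another probe map, which was not repeated here). GCRMA corrects background by probe sequence and equalizes signals between arrays, so values near the low end are compressed. Of 15923 probe sets, 57 controls were left out, 12783 had exactly 1 symbol, 312 several and 2771 none, and 0 sample columns were unused. Groups came from the repository's labels and scan days from the scanner's files. R 4.3.3 and limma 3.58.1 were used, with the 8 arrays of each TCDD comparison, the 16 corn oil arrays, the 16 arrays of the 4 groups in differences of 2 strains/lines or times, and the 32 of all 4 strains/lines. The code was tested on simulated data. The number of arrays limits the precision. The members and lists were chosen with earlier results of these data known. Every member is named, with at most 4 genes of a list in a comparison (lowest p), all called liver factors, and the 3 genes most like each member, of which those of members with low or weak r are given by r alone. Alternatives were other probe set choices, filters, normalizations, variance models, blocks and arrays left out. Replicate numbers paired samples (every correlation above 0.1 over 2245 genes with a variance over 0.1) only in LnA TCDD against LnA corn oil, at 0.119 to 0.164, and the labels state no pairing. Of the array symbols, 12748 were looked up by Entrez ID in RefSeq with 0 differences.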

Additional observations from a re-analysis of the deposited data

Results flagged for a closer look

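In 9 of 110 sets of 4 rats of a group (members' representative probe sets and the second ones of Hnf4a and Nfib), 1 liver lay farther from the other 3 than Dixon's 95% value for 4 samples allows, which chance alone gives in about 5% of groups. In LnA corn oil livers it was replicate 1 both in Nfib, 7.47 where the others had 8.13 to 8.21, and in Foxa2, 8.11 where the others had 9.04 to 9.19. In Foxa1 it was replicate 2 in 3 TCDD groups at 19 h, low in H/W at 3.43 (others 3.96 to 4.05) and high in LnA at 4.47 (4.04 to 4.08) and LnC at 4.40 (4.06 to 4.09). In Cebpd it was L-E corn oil replicate 1 at 2.49 (2.20 to 2.22) and LnC corn oil replicate 4 at 2.56 (2.23 to 2.28), below the array medians. In the second Hnf4a probe set it was L-E TCDD 3 h replicate 4 at 8.80 (8.94 to 8.95) and LnC TCDD 19 h replicate 4 at 7.89 (7.99 to 8.01), gaps of little size. Hnf4a in H/W corn oil replicate 3, at 7.37, was not beyond that value, since the other 3 livers also spread. No difference between 2 responses passed its test.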

How the results depend on the processing

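Called members were counted under each alternative. With all probe sets of a gene averaged the count was 1 in L-E and 0 in LnC after TCDD, and 0 for LnA minus H/W in corn oil rats. With the replicate block, numbers that are not known to pair these samples, it was 0 in L-E, 0 in LnC and 0 for 19 h minus 3 h in H/W. For LnC minus L-E in corn oil rats the count of 3 became 2 with averaged probe sets, with every probe set tested, with median centring and with the replicate block, each time through the loss of Nfib, and also with the lowest 40% of genes left out, which removes Gata4. The block changed no other count of called members. With 1 fit over all 10 groups it was 1 in H/W after TCDD, 3 for the time difference in H/W and 2 for that in L-E. With the lowest 40% left out, among them Gata4 and Cebpd, it was 3 in L-E after TCDD, with Cebpb added, 0 for H/W minus L-E in corn oil rats, 3 for the time difference in H/W and 1 for that in L-E. With quantile normalization or median centring it was 0 for the time difference in H/W, with array weights 2 there and 2 for LnA minus H/W in corn oil rats, and with limma's trend 1 for the time difference in L-E. Leaving out 1 array gave 1 to 2 in L-E after TCDD, 1 to 2 for LnA minus H/W in corn oil rats, 2 in each case for LnC minus L-E in corn oil rats, 0 to 1 for the time difference in H/W and 0 to 1 for that in L-E, and the other 10 counts did not move. Over the single members' differences, 30 settings lost a call, 17 gained one and none turned a called direction. Scan day could not be used as a block in 8 of the 15 comparisons, since no scan day held both groups or 1 day held them all.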
